A study of Mus musculus with 12 samples.

Results

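The data described here are the thymocytes that had been stimulated through the T-cell receptor, compared between mice with and without MED23 in their T-cells. They are the 6 arrays of αCD3-treated cells out of 12 arrays in the series, chosen by treatment, and the remaining 6 arrays hold mock-treated cells of the same mice. The MED23 null group was 2 Med23flox/flox;Lck-Cre mice. The controls were 2 Med23+/+;Lck-Cre mice, referred to as Lck-Cre, which carry the Cre transgene without a floxed allele, and 2 Med23flox/flox mice, which carry the floxed alleles without Cre. All were female C57Bl/6 x 129Sv (F1) mice of 6 to 7 weeks. Total thymocytes were rested for 4 h and then placed for 3 h on plate-bound antibody to CD3 (αCD3) or kept without it (mock). Lck-Cre acts from the DN4 stage, late in the double negative (DN) phase, and mice differ in how completely it deletes, so the null arrays measured all cells of a thymus in which deletion was not scored cell by cell. The genes considered are mainly those that were lower or higher in MED23 null thymocytes and lay outside the set that αCD3 induced at least 2-fold on average. Some of them still rose by less than that.

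MED23 is a subunit of Mediator, the complex that connects DNA-bound transcription factors to RNA polymerase II, and it is known as a coactivator for ETS factors such as ELK1 that act at the end of the RAS and MAPK/ERK pathway. Most thymocytes are CD4 CD8 double positive (DP) cells, which rearrange the T-cell receptor α genes and are screened for the strength of their receptor signal. Those that pass become CD4 or CD8 single positive cells and gain the surface proteins, chemokine receptors and adhesion molecules of mature T-cells before they leave for the periphery. Antibody to CD3 engages the receptor complex on all of these cells and stands in for the signal from a peptide and MHC ligand.

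Markers of the labelled cell type were present on all 6 arrays. The recombination genes Rag1 and Dntt, which are defining genes of DP thymocytes, had signals of 25468 to 30848 in the 4 controls and 26759.7 and 21300.3 in the null mice, and of 19522 to 21202 in the 4 controls and 18294 and 19642 in the null mice. The coreceptor genes Cd4 and Cd8a, the receptor chain gene Cd3e and the thymocyte surface antigen gene Thy1 had signals of at least 3323 on every array. The Med23 probe set itself gave 309.9 and 425 in Lck-Cre mice, 489 and 381 in Med23flox/flox mice, and 252 and 239 in MED23 null mice. Both null signals lay below all control signals, with a log2 difference of -0.59 (SE 0.20, limma adjusted p = 0.648), and it is not known whether its probes lie in the deleted exons. It remained well above the filter in the null mice. Of 13 Mediator subunits measured, no other was without overlap between the groups (8.78% lower and 7.37% higher over all probe sets). Without Med23flox/flox replicate 1 the count was 3 lower and 1 higher, where 13.2% and 12.1% of all probe sets were. Of the other array facts, the αCD3 array of Med23flox/flox replicate 1 stood apart, with a lower quartile of its signals of 85.2 against 50.2 to 58.2 on the other αCD3 arrays and a mean correlation of 0.930 with them against 0.952 to 0.956. Actin probe sets from opposite ends of the transcript, compared to judge RNA integrity, gave a 3'/5' ratio that was 1.90 and 1.61 on the null αCD3 arrays and 1.35 to 1.41 on those of the controls. The part of these differences in the results was not tested. In total thymocytes, fewer cells of a type and less RNA per cell cannot be told apart.

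Values are MAS5 signals, in arbitrary units on a linear scale that was already alike between arrays. Differences are MED23 null minus control on the scale of log2(signal + 50), which understates changes of dim probe sets. A probe set was tested if its mean reached 100 in either group, which left 8679. Those whose αCD3 minus mock log2 difference within each mouse averaged at least 1 in control or in null mice, 142 in all (1.64%), form the induced set. No probe set passed an adjusted p of 0.05 in limma (smallest 0.336), and 593 (6.83%) had an unadjusted p under 0.05, of which 348 were lower (4.01% of those tested) and 245 higher (2.82%). None of the differences below therefore passed the test over all probe sets, and with 2 arrays against 4 an exact two-sided permutation test of a single probe set cannot go below p = 0.0667. Both null signals lay below all control signals for 762 probe sets (8.78%) and above them for 640 (7.37%). Outside the induced set these were 728 lower and 617 higher. Without Med23flox/flox replicate 1 the counts were 1143 and 1053 over the same probe sets. The groups were without overlap and the means at least 2-fold apart for 153 lower (1.76%) and 98 higher (1.13%) probe sets, and for 121 and 127 after quantile normalization. The median log2 difference over all probe sets was -0.00.

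**Figure D1:**
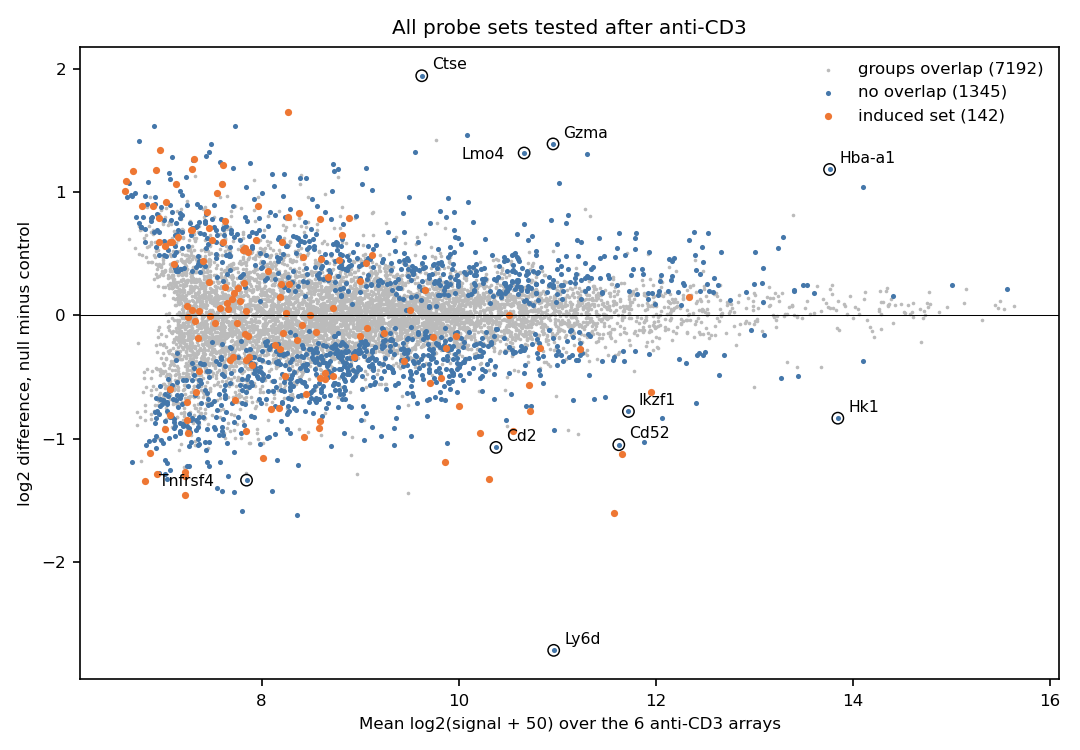
Each point is 1 of the 8679 probe sets, with its mean log2(signal + 50) over the 6 αCD3 arrays on the x axis and the log2 difference between MED23 null and control thymocytes on the y axis. Blue points are the 1345 probe sets outside the induced set whose groups did not overlap, orange points the 142 of the induced set, and ringed points are named. Ly6d at -2.71 lies farthest from 0, and the spread is widest among dim probe sets.

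The lower genes were named, like the higher ones, because their groups did not overlap, so that this separation is given as a description. Ly6d, which encodes a small GPI-anchored antigen of the LY6 family used to mark thymocytes and early B-lineage cells, had signals of 4367 and 2525 in Lck-Cre mice, 5631 and 2975 in Med23flox/flox mice, and 760.5 and 351 in MED23 null mice. Even the higher null signal lay far below the lowest control signal, and the difference was -2.71 (SE 0.40, limma adjusted p = 0.336), the largest in either direction. Cd52, another short GPI-anchored glycoprotein, abundant on mature lymphocytes, gave 4198.5 and 4479.7 in Lck-Cre mice, 3556 and 3718 in Med23flox/flox mice, and 2014 and 1784 in MED23 null mice. Its control signals lay close together, as did the null ones, and the groups were far apart, at -1.05 (SE 0.18, limma adjusted p = 0.407). With a variance trend on intensity both genes passed the test in limma (adjusted p = 0.0142 for Ly6d and 0.0198 for Cd52), and Cd52 also passed in a joint limma fit of both treatments with the mouse as a random block (adjusted p = 0.04). Over the alternatives the adjusted p ran from 0.0142 to 0.728 for Ly6d and from 0.0198 to 0.728 for Cd52.

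Several receptors of the T-cell surface were among the lower genes. Cd2, whose product binds CD48 on other cells and lowers the threshold for T-cell receptor signals, had signals of 1869 and 1481 in Lck-Cre mice, 1442 and 1873 in Med23flox/flox mice, and 703 and 826 in MED23 null mice. Both null values were far below the lowest control value, a difference of -1.07 (SE 0.19, limma adjusted p = 0.407). Tnfrsf4 encodes OX40, a costimulatory receptor of the TNF receptor family. Its signals were 244.5 and 241 in Lck-Cre mice, 261 and 312 in Med23flox/flox mice, and 78.1 and 70.6 in MED23 null mice. All 4 controls were alike and both null mice lay below 100, where MAS5 signals are close to background, so that the size of the difference, -1.33, cannot be read exactly. Icos, a costimulatory receptor related to CD28, had signals of 526 to 723 in the 4 controls and 394 and 252 in the null mice, a difference of -0.90 (SE 0.23, limma adjusted p = 0.483). Other receptors of this kind differed little, with Cd28 at -0.13 and Ctla4 at 0.14, both with overlap, and Tnfrsf18 at -0.13 without.

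St6gal1, the sialyltransferase that caps N-glycans with sialic acid, was represented by a pair of probe sets that both met the naming rule. The brighter one had signals of 763 and 996 in Lck-Cre mice, 656 and 731 in Med23flox/flox mice, and 353 and 348.5 in MED23 null mice. Its null signals were nearly equal and lay below all 4 controls, with a difference of -1.05 (SE 0.20, limma adjusted p = 0.407). For the dimmer one the difference was -1.21, but it rested on null replicate 1, at 64.5, since null replicate 2 at 262 was close to the lowest control at 272.

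Among lower genes of the cell interior, Slc30a4, a zinc transporter of vesicles, had signals of 1025 and 1040.5 in Lck-Cre mice, 1215.5 and 1317 in Med23flox/flox mice, and 596 and 476 in MED23 null mice. The groups did not overlap and the difference was -1.03 (SE 0.19, limma adjusted p = 0.407). Rnf10, a RING finger ubiquitin ligase and the brightest of the 20 lower probe sets, had signals of 3973 to 5311 in the 4 controls and 2738 and 1916 in the null mice, with a difference of -1.03 (SE 0.21, limma adjusted p = 0.407). Degs2, a sphingolipid desaturase and hydroxylase, gave 280.0 to 621 in the 4 controls and 88.6 and 124 in the null mice (-1.62). Its 2 Med23flox/flox signals, 621 and 577, were above both Lck-Cre signals. Ahnak, a very large scaffold protein linked to calcium entry in T-cells, gave 133.5 to 269.8 in the 4 controls and 66.8 and 36.8 in the null mice (-1.42), and Dhrs7, a short-chain dehydrogenase, 126 to 259 in the 4 controls and 70.5 and 79.1 in the null mice (-1.03). In both, Med23flox/flox replicate 1 was the lowest control. Errfi1, an inhibitor of ERBB receptor kinases, had 360.5 to 633 in the 4 controls and 217.5 and 195 in the null mice (-1.06), while its second probe set, with a difference of -0.33, had overlapping groups.

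The remaining named lower genes were dim or uneven. Of the 20 lower probe sets, from 19 genes, 9 had a null mean below 100. Prep, a prolyl endopeptidase, ranged from 129.8 to 464 within the controls alone (-1.58). Abca1, the exporter of cholesterol to lipoproteins, had null signals of 35.3 and 187 (-1.43; -0.53 on its second probe set, with overlap). For Inpp5a, an inositol phosphatase that removes the calcium-releasing messenger IP3, the named probe set differed by -1.30 and a brighter one by -0.12. For the gene listed as Caml, the named probe set differed by -1.40, and a pair of others by 0.21 and 0.61, in the opposite direction. Plg (-1.43), Csf2ra (-1.22), Pkp1 (-1.18) and Prl (-1.17), genes of plasminogen, a GM-CSF receptor chain, a desmosome protein and prolactin, had control means between 204 and 332.

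**Figure D2:**
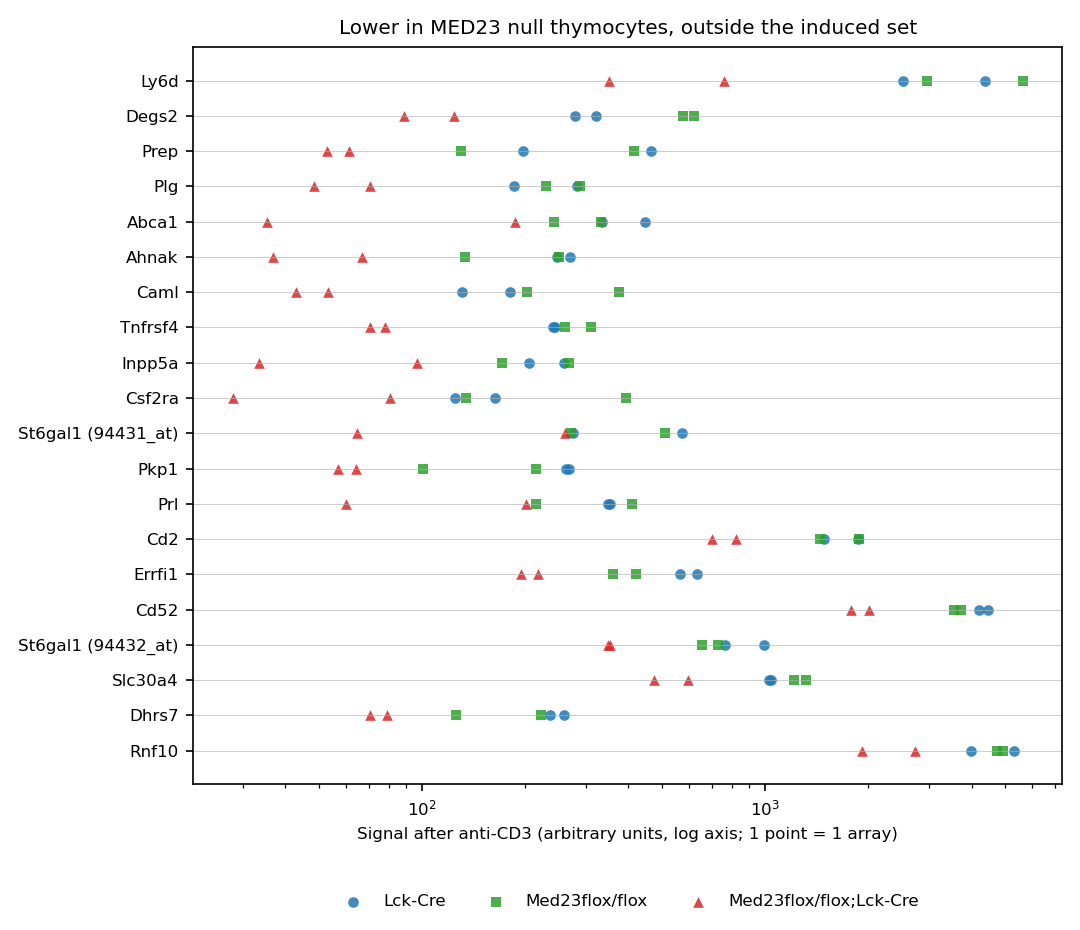
Signals after αCD3 on a log axis for the 20 lower probe sets outside the induced set, with 1 point per array and the genotypes as blue circles (Lck-Cre), green squares (Med23flox/flox) and red triangles (MED23 null). Both triangles lie left of all control points in every row, as the naming rule requires, and rows with triangles below 100 are near background.

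Markers of mature single positive thymocytes were lower in part. Of 11 measured, 6 were below all controls in both null mice and none was above, where 8.78% of all probe sets were lower in this way. All lists here were chosen with earlier results of these data known, and this one holds Cd52, so their counts are descriptions. The median difference was -0.39, and none passed the test. Slfn1, a Schlafen gene that is turned down when T-cells are activated, had signals of 727 and 786 in Lck-Cre mice, 612 and 668 in Med23flox/flox mice, and 362 and 297 in MED23 null mice, a difference of -0.98 (SE 0.18, limma adjusted p = 0.407). Ccr7, the chemokine receptor that guides mature thymocytes to the medulla, had 585 and 761 in Lck-Cre mice, 495 and 491 in Med23flox/flox mice, and 298 and 297 in MED23 null mice, a difference of -0.84 (SE 0.21, limma adjusted p = 0.496). The null signals of Ccr7 were nearly equal and lay below the control ones. Gimap4, a GTPase of lymphocyte survival, had 1754 to 3384 in the 4 controls and 1659.9 and 1591 in the null mice (-0.68), so that the groups were separated narrowly, by Med23flox/flox replicate 1 at 1754. The integrin chain gene Itgb7 and the interleukin 7 receptor gene Il7r differed by -0.43 and -0.35. The brightest members did not follow. The MHC class I gene H2-D1 had signals of 8903 to 10562 in the 4 controls and 12050.2 and 9596 in the null mice, and Slfn2 of 6911 to 9139.5 in the 4 controls and 7749.5 and 7509 in the null mice, so that in both the groups overlapped. Klf2 was below the filter. The summed signal of the list overlapped too, at 34342 to 41112 in the controls and 36928 and 34058 in the null mice.

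Crip1, a small LIM domain protein of lymphocytes, differed by -0.93, with signals of 1791 to 2936 in the 4 controls and 1143 and 1385 in the null mice. Of 15 genes of DP thymocytes measured, 3 were lower without overlap (St6gal1, Satb1 and Cd8a) and 1 higher (Cd4), with a median of -0.08 (8.78% lower and 7.37% higher over all probe sets). The summed signal of these genes was 127860 to 131460 in the controls and lower in both null mice, at 117710 and 117520. Rag1, Dntt and Cd8b1, with control means of 27853, 20460 and 19750, weigh most in this sum, and each overlapped between the groups. The sum therefore does not describe the list as a whole. Satb1, a chromatin organizer of thymocytes, had signals of 16353.5 to 21323 in the 4 controls and 15334 and 14179.8 in the null mice (-0.37). Cd8a differed by -0.16 (95% interval -0.56 to 0.24) and Cd4 by 0.17 (95% interval -0.21 to 0.55). A second, dimmer probe set of Dntt differed by -0.71 without overlap, while the brighter one differed by -0.11.

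Genes of proximal T-cell receptor signalling included 5 of 19 that were lower without overlap and 1 that was higher, with a median of -0.12 (8.78% lower and 7.37% higher over all probe sets). Beside Cd2, the Src-family kinase gene Fyn had signals of 1015 and 898 in Lck-Cre mice, 747 and 1066 in Med23flox/flox mice, and 554 and 567 in MED23 null mice, a difference of -0.67 (SE 0.19, limma adjusted p = 0.536). Both null values were below the lowest control, which was Med23flox/flox replicate 1. Ptpn6, the phosphatase SHP-1, had 1062 to 1340.3 in the 4 controls and 836 and 926 in the null mice (-0.42), and Cbl, a ubiquitin ligase that ends receptor signals, 1280.5 to 1509 in the 4 controls and 1262 and 865 in the null mice (-0.41). Sla, an adaptor that lowers the level of the receptor, differed by -0.21, and the phosphatase gene Ptpn22 was higher by 0.39. The receptor complex itself, with 9 genes measured, had a median of -0.13, and its members without overlap were Cd4 and Cd8a. Without Med23flox/flox replicate 1 the count was 4 lower and 1 higher (13.2% and 12.1% over all probe sets). Cd3e overlapped, with 3442 to 4180.1 in the 4 controls and 3323 and 5091.5 in the null mice.

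Of 19 transcription factors of the thymocyte lineages, 5 were lower without overlap and none higher, with a median of -0.12 (8.78% lower and 7.37% higher over all probe sets). Ikzf1, which encodes Ikaros, had signals of 4438 and 4336.5 in Lck-Cre mice, 3194 and 4139.5 in Med23flox/flox mice, and 2871.5 and 1853 in MED23 null mice, a difference of -0.78 (SE 0.24, limma adjusted p = 0.586). Both null mice lay below the controls but null replicate 1 was closer to Med23flox/flox replicate 1 than to the other null mouse, and a second, dimmer probe set of Ikzf1 differed by -0.10. Fli1, an ETS factor, differed by -0.36, Nfatc3, a factor of calcium signalling, by -0.32, and Lef1, a partner of β-catenin, by -0.31. Of 14 ETS, SRF and MEF2 factors, a group that includes known partners of MED23, Fli1 was lower and Mef2d higher (0.25) without overlap, which is near the shares over all probe sets. The median was -0.05, or 0.06 with 1 lower and 2 higher without Med23flox/flox replicate 1 (13.2% and 12.1% over all probe sets).

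Enzymes of glycolysis were lower in 6 of 13 genes measured without overlap and higher in none, with a median of -0.21 (8.78% lower over all probe sets). Without Med23flox/flox replicate 1 the counts were 7 and 1 (13.2% and 12.1% over all probe sets). Hk1, a hexokinase that commits glucose to the pathway, was a bright probe set with 16816 and 16924 in Lck-Cre mice, 17835 and 19823.5 in Med23flox/flox mice, and 8061 and 12349 in MED23 null mice. The null signals differed from each other but both lay well below the controls, and the difference was -0.83 (SE 0.21, limma adjusted p = 0.498). Pfkp, a phosphofructokinase, had 309 to 555 in the 4 controls and 198 and 212 in the null mice (-0.79), with a second probe set that overlapped at -0.36. Pgk1 differed by -0.37, the mutase gene Pgam1 by -0.34 and the glucose transporter gene Slc2a3 by -0.21. Hk2, which belongs to the induced set, was near background. Aldoa, Pkm and Ldha, with differences of -0.07, -0.09 and -0.11, overlapped between the groups.

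In the synthesis of cholesterol and other lipids, 7 of 18 genes were lower without overlap and 1 higher (8.78% lower and 7.37% higher over all probe sets), but the median was -0.07. Without Med23flox/flox replicate 1 the counts were 9 and 2 (13.2% and 12.1% over all probe sets), with a median of -0.17. Pcyt1a, a rate-limiting enzyme of phosphatidylcholine synthesis, had 202 to 402 in the 4 controls and 145 and 116 in the null mice (-0.96), whereas its second probe set differed by 0.27 with overlap. Fasn, the fatty acid synthase, had 700.2 to 987 in the 4 controls and 516 and 656 in the null mice (-0.48), and the desaturase gene Scd2 1365 to 2007 in the 4 controls and 1166.5 and 1351 in the null mice (-0.47; -0.13 on a second probe set, with overlap). Mvd (-0.61), Idi1 (-0.40), Lss (-0.23) and Srebf1 (-0.12) act in or control sterol synthesis, and Acly, which makes cytosolic acetyl-CoA, was higher by 0.20.

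Among the genes higher in the MED23 null cells, Gzma and Lmo4 passed the test under some alternatives. Gzma, a granule protease of cytotoxic lymphocytes, had signals of 1268 and 1547.5 in Lck-Cre mice, 1368 and 1399.8 in Med23flox/flox mice, and 4252 and 3268 in MED23 null mice. Both null signals were more than 2 times the highest control, and the difference was 1.39 (SE 0.18, limma adjusted p = 0.336). Lmo4, a LIM-only adaptor that assembles transcription factor complexes, gave 998 and 1377 in Lck-Cre mice, 1063.5 and 1183 in Med23flox/flox mice, and 2705 and 3173 in MED23 null mice. Its groups were as well separated, at 1.32 (SE 0.19, limma adjusted p = 0.336). Gzma and Lmo4 each passed the test when limma allowed a variance trend on intensity (adjusted p = 0.0142 for both) and in a joint fit of both treatments with the mouse as a random block (adjusted p = 0.04 for both). Over the alternatives their adjusted p ran from 0.0142 to 0.728 for Gzma and from 0.0142 to 0.728 for Lmo4.

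The part of cytotoxic cells in the Gzma signal was not tested. Other markers of such cells were mostly dim. The summed signal of the 14 NK and cytotoxic genes on the array was 3196 to 3747 in the controls and 6185 and 4981 in the null mice. Without Gzma the 13 others summed to 1649 to 2379 in the controls and 1933 and 1714 in the null mice, within the control range. Of 10 measured, Gzma alone had no overlap (7.37% higher over all probe sets). With Med23flox/flox replicate 1 left out, Gzma and 1 other had none (12.1% higher over all probe sets). Gzmb had signals of 90.8 to 211 in the controls and 216.5 and 148 in the null mice, and the receptor genes Ncr1 and Klrk1 and the protease gene Gzmk were below the filter.

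Phlda1, a pleckstrin-homology domain protein named for its link to T-cell death, had signals of 448 and 385 in Lck-Cre mice, 600.5 and 615 in Med23flox/flox mice, and 1164 and 1534 in MED23 null mice, a difference of 1.33 (SE 0.24, limma adjusted p = 0.407). Tgfb1i1, the LIM domain coactivator HIC-5, had 387 and 323.5 in Lck-Cre mice, 405 and 308 in Med23flox/flox mice, and 778 and 983 in MED23 null mice, a difference of 1.20 (SE 0.19, limma adjusted p = 0.399). In both, the null signals were above all controls by a margin wider than the spread of the controls. A probe set annotated to Snrp1c-ps2, a pseudogene of a spliceosome protein, had 271 to 304 in the 4 controls and 738.5 and 681 in the null mice (1.19), and since it can share sequence with its parent gene the source of the signal is uncertain. Myo6 (1.29; 0.12 on a second probe set, with overlap), an unconventional myosin, Pck2 (1.26; 1.41 on a second probe set, without overlap), the mitochondrial PEP carboxykinase, Reg3b (1.53), a secreted lectin, and Osbpl9 (1.38; -0.43 on a second probe set), a lipid-transfer protein, had dim control signals, all at or below 160.2.

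A further set of higher genes rested on 1 of the null mice. Ctse, the aspartic protease cathepsin E, had signals of 456 and 566 in Lck-Cre mice, 395 and 416 in Med23flox/flox mice, and 574 and 5961 in MED23 null mice. Null replicate 2 was far above every other mouse and null replicate 1 was level with the highest control, so the difference of 1.94 (SE 0.78) describes 1 mouse, and its other probe sets differed by -0.07 and -0.45 with overlap. The globin gene Hba-a1 gave 14974 and 11766 in Lck-Cre mice, 11737.5 and 5935 in Med23flox/flox mice, and 37279 and 15386 in MED23 null mice, and Hbb-b2 gave 2046 and 1567 in Lck-Cre mice, 2139 and 1580.2 in Med23flox/flox mice, and 9296 and 2232 in MED23 null mice. In both, null replicate 1 was far above the rest and null replicate 2 only just above the highest control. The same mice stood out on their mock arrays, with Ctse at 5468 in null replicate 2 and Hba-a1 at 36041 in null replicate 1. The 13 genes of the erythroid list on the array summed to 10164 to 20283 in the controls and to 42683 and 20354 in the null mice. Without Hba-a1 they summed to 4230 to 6198 in the controls and to 5404 and 4968 in the null mice. Hbb-b2 was not in this list. Tfrc alone made up 2493 and 3264 of the null sums without Hba-a1, so these sums do not describe the list as a whole. Alas2, the enzyme that starts haem synthesis in red cells, was 915 in null replicate 1 and 266 in null replicate 2, against 166 to 360 in controls. Klf1, an erythroid transcription factor, had 73.3 to 174 in the 4 controls and 352 and 380.4 in the null mice (1.23), but on the mock arrays the groups overlapped.

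The other named higher genes had controls that were widely spread. The probe sets of Slc41a1, a magnesium transporter (1.23), Ttc39b (1.17), Ramp3, a partner of calcitonin-family receptors (1.14), Ang2 (1.12), Ppp2r5d, a regulatory subunit of PP2A (1.11), and a dim one of the ribosomal gene Rpl19 (1.15) had standard errors of 0.32 to 0.54. A second probe set of Ttc39b pointed the other way (-0.84, without overlap), and the bright one of Rpl19 differed by 0.08.

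**Figure D3:**
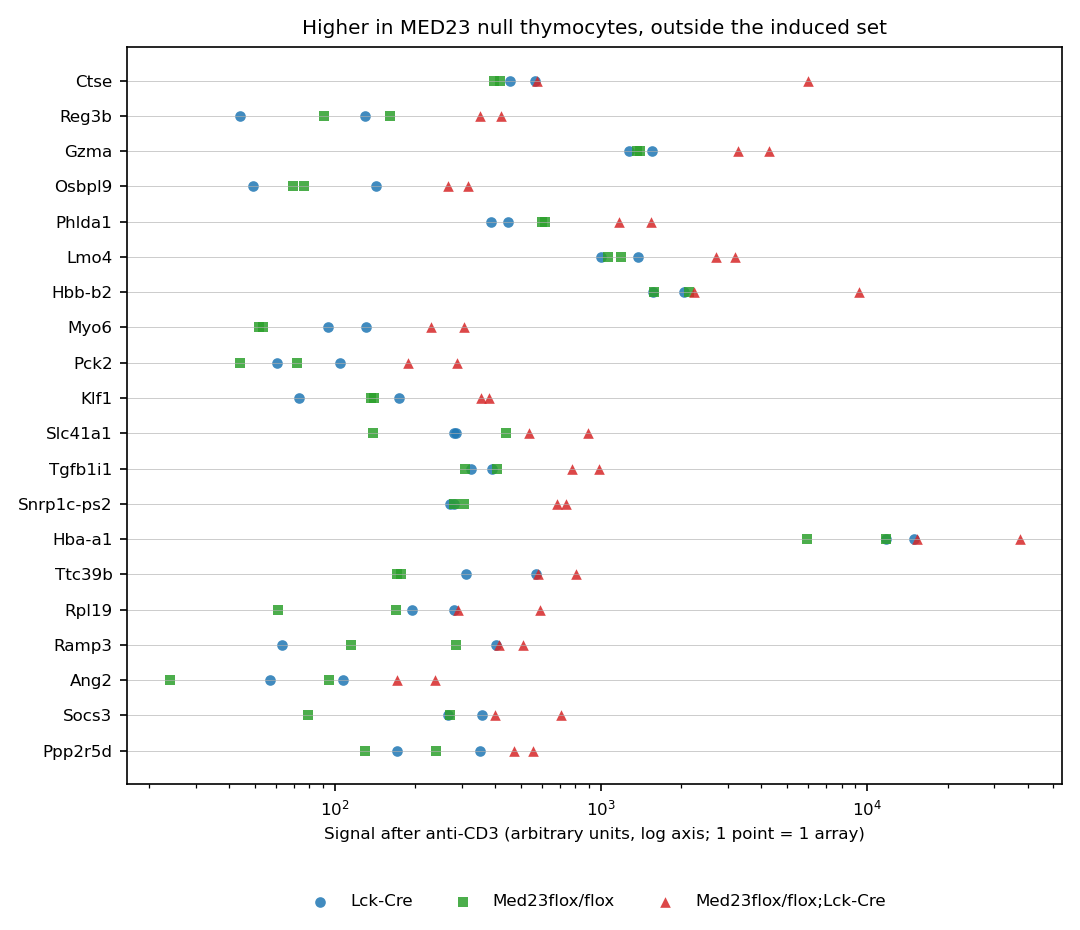
Signals after αCD3 on a log axis for the 20 higher probe sets outside the induced set, with 1 point per array, drawn as in the plot of the lower genes. The null triangles of Gzma, Lmo4, Phlda1 and Tgfb1i1 sit together and apart from all controls, whereas 1 triangle of Ctse, Hbb-b2 and Hba-a1 lies next to the controls.

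Genes of the Notch pathway, which is used by DN thymocytes, made up the members of that marker list without overlap, 3 of 10 measured and all of them higher (7.37% over all probe sets). Notch1 had signals of 1134.5 and 1268 in Lck-Cre mice, 1402 and 1387 in Med23flox/flox mice, and 1590.0 and 2150.4 in MED23 null mice, a difference of 0.50 (SE 0.19, limma adjusted p = 0.69). Notch3 differed by 0.46, with 362 to 417 in the 4 controls and 645 and 504 in the null mice, and Dtx1, a Notch target, by 0.56, with 243 to 312.5 in the 4 controls and 524 and 349 in the null mice. A second probe set of Notch1 was higher by 0.57 without overlap. On the mock arrays the brighter Notch1 probe set was higher by 0.25 without overlap, while Notch3 (0.19) and Dtx1 (-0.05) overlapped. Other members of the list did not share this separation, since Kit (0.15), Hes1 (0.22) and Cd44 (-0.45) overlapped. Il2ra, which defines a DN stage, was below the filter. The largest difference in the list was that of Lmo2, which was lower. Lmo2 overlapped, with 207 to 317 in the 4 controls and 230 and 38.6 in the null mice, and so rested on null replicate 2. By sign alone, 8 of the 10 measured were higher and 2 lower. The list had a median of 0.19, or 0.29 with 4 higher without Med23flox/flox replicate 1 (12.1% higher over all probe sets). Its summed signal was 3391 to 3956 in the controls and 4662 and 4386 in the null mice, above all controls. Notch1, the brightest member, made up 1590.0 and 2150.4 of the null sums, so that the sum does not describe the list as a whole.

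Of 20 cytokine receptor chains and their inhibitors, 3 were lower and 3 higher without overlap (8.78% lower and 7.37% higher over all probe sets). Without Med23flox/flox replicate 1 they were 5 and 3 (13.2% and 12.1% over all probe sets). Such small counts are not read as a result about the list. Socs1, a feedback inhibitor of cytokine signals that is strongly expressed in DP thymocytes, had signals of 5572 and 4978 in Lck-Cre mice, 4549 and 5532.5 in Med23flox/flox mice, and 2435 and 3368 in MED23 null mice, a difference of -0.83 (SE 0.20, limma adjusted p = 0.463). Socs3, a related inhibitor, was higher on both of its probe sets, by 1.11 and by 0.61, the latter with 424 to 655.5 in the 4 controls and 935 and 705 in the null mice. The interferon receptor chains differed in direction, with Ifngr2 at -0.71 (346 to 532 in the 4 controls and 193 and 306 in the null mice) and Ifnar2 at 0.64 (741 to 925 in the 4 controls and 1234 and 1350.2 in the null mice), and a second probe set of Ifnar2 overlapped. Il10rb was higher by 0.36. Among 10 GPI-anchored and LY6 antigens, Sema7a, a semaphorin of the T-cell surface, was lower beside Ly6d and Cd52, with a difference of -0.74 (432 to 588 in the 4 controls and 353 and 229.9 in the null mice; 0.61 on a second probe set with overlap), while Thy1 was higher by 0.55, with signals of 7655 to 9900.1 in the 4 controls and 10884 and 14085.5 in the null mice.

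The mock arrays of the same mice show which of these differences were present without stimulation. They come from the same mice as the αCD3 arrays and so are no independent support. Of the 20 lower probe sets, 11 were also below all controls in mock-treated cells, where 8.54% of all probe sets were, and 8 of the 20 higher ones were above, where 8.99% were. For Ly6d the mock difference was -2.28, for Cd52 -1.24, for Slfn1 -1.14, for Ccr7 -1.26, for Ahnak -1.51 and for Crip1 -1.06. Gzma differed by 1.73, Phlda1 by 1.25 and Lmo4 by 1.05. All of these had the same sign as after αCD3, and Ccr7 was farther from 0 without stimulation. In mock-treated cells no probe set passed the test either (smallest limma adjusted p = 0.0631, while 646 lay under 0.05 before adjustment).

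Other differences were seen after αCD3 and not in mock-treated cells, although no difference in induction passed the test (smallest limma adjusted p = 0.333, with 440 of 8679 at an unadjusted p under 0.05, or 5.07%). Ikzf1 had mock signals of 2295 to 2576.5 in the 4 controls and 2536 and 2795 in the null mice, so that the groups overlapped. Its αCD3 minus mock log2 difference was 0.70 in control mice and -0.20 in the null mice, and the groups differed in it by -0.90 (SE 0.30, limma adjusted p = 0.975). For Hk1 it was -0.06 in control mice and -0.82 in the null mice, a difference of -0.76 (SE 0.24, limma adjusted p = 0.975). Pcyt1a changed by 0.88 in control mice and -0.21 in the null mice, but its second probe set did not share this, at 0.03 in control mice and 0.18 in the null mice. Bid, a BH3-only protein of the BCL2 family, changed by 0.27 in control mice and -0.27 in the null mice. Bid had αCD3 signals of 192 to 311 in the 4 controls and 149 and 119 in the null mice (-0.68). Plg, Csf2ra and Pkp1 were of this kind as well, with mock differences of 0.20, 0.54 and 0.34, and so were Klf1 (-0.17) and Snrp1c-ps2 (-0.86) among the higher genes. The null means of Plg, Csf2ra and Pkp1 after αCD3 were near background, at 59.55, 54.3 and 60.65. All genes of this kind were named for their separation after αCD3. A smaller difference in mock-treated cells is therefore fixed in part by that choice. Cd2 and Tnfrsf4 lay between, with mock differences of -0.59 and -0.78, both without overlap, and inductions of 0.92 in control mice and 0.44 in the null mice for Cd2 and of 0.80 in control mice and 0.24 in the null mice for Tnfrsf4.

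**Figure D4:**
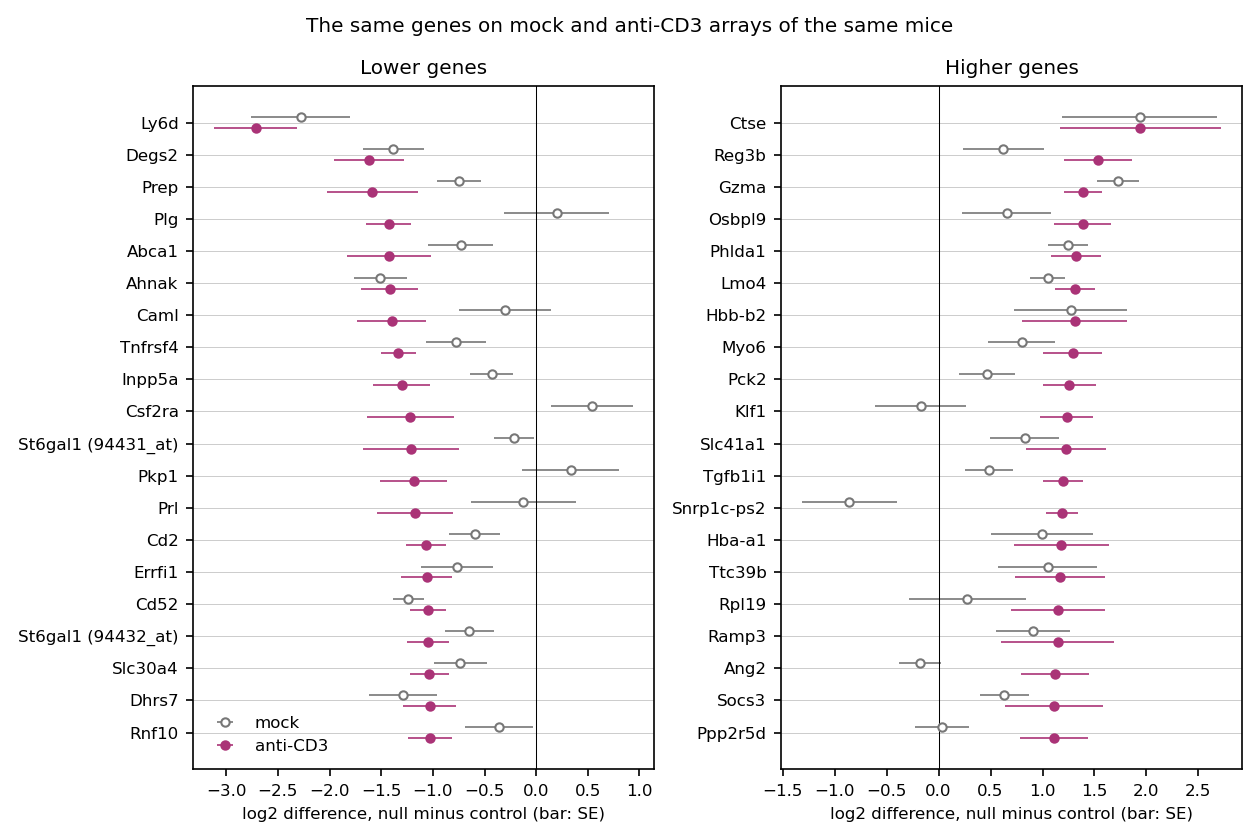
Log2 differences between MED23 null and control thymocytes with their standard errors from limma, for the 20 lower (left) and 20 higher (right) probe sets, on mock (open grey) and αCD3 arrays (filled purple) of the same 6 mice. Ly6d, Ahnak, Cd52, Gzma, Phlda1, Lmo4 and Ctse have like values in both treatments, whereas Plg, Csf2ra, Pkp1, Klf1, Snrp1c-ps2 and Ang2 lie across 0 or near it without stimulation.

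The genes of the induced set were not the main subject here, but they bear on how the rest compares. Of the induced set, 34 of 142 probe sets were lower without overlap and 23 higher, where 8.78% and 7.37% of all probe sets were, and since the set was chosen with these αCD3 arrays nothing is read from its count. Of 21 immediate early and MAPK/ERK genes 8 were lower without overlap and none higher (median -0.40), and of 22 T-cell activation genes likewise 8 and none (median -0.25), against the same shares over all probe sets. Members of these lists outside the induced set included Tnfrsf4 and Icos, above, and the MAPK phosphatase genes Dusp6 (-0.71), Dusp1 (-0.46) and Dusp2 (-0.40). In the apoptosis list of 16 genes, 2 were lower without overlap (Bid and Cflar, an inhibitor of caspase 8, at -0.35) and 3 higher (Bad at 0.38, with 0.33 on a second probe set that overlapped, Bcl2l2 at 0.31 and Bak1 at 0.19). In the cell cycle list of 28 genes 4 were lower, among them Mcm4 (-0.44) and Rrm2 (-0.32), which act in DNA replication, and 4 higher, among them Mki67 (0.25), with a median of -0.04.

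**Figure D5:**
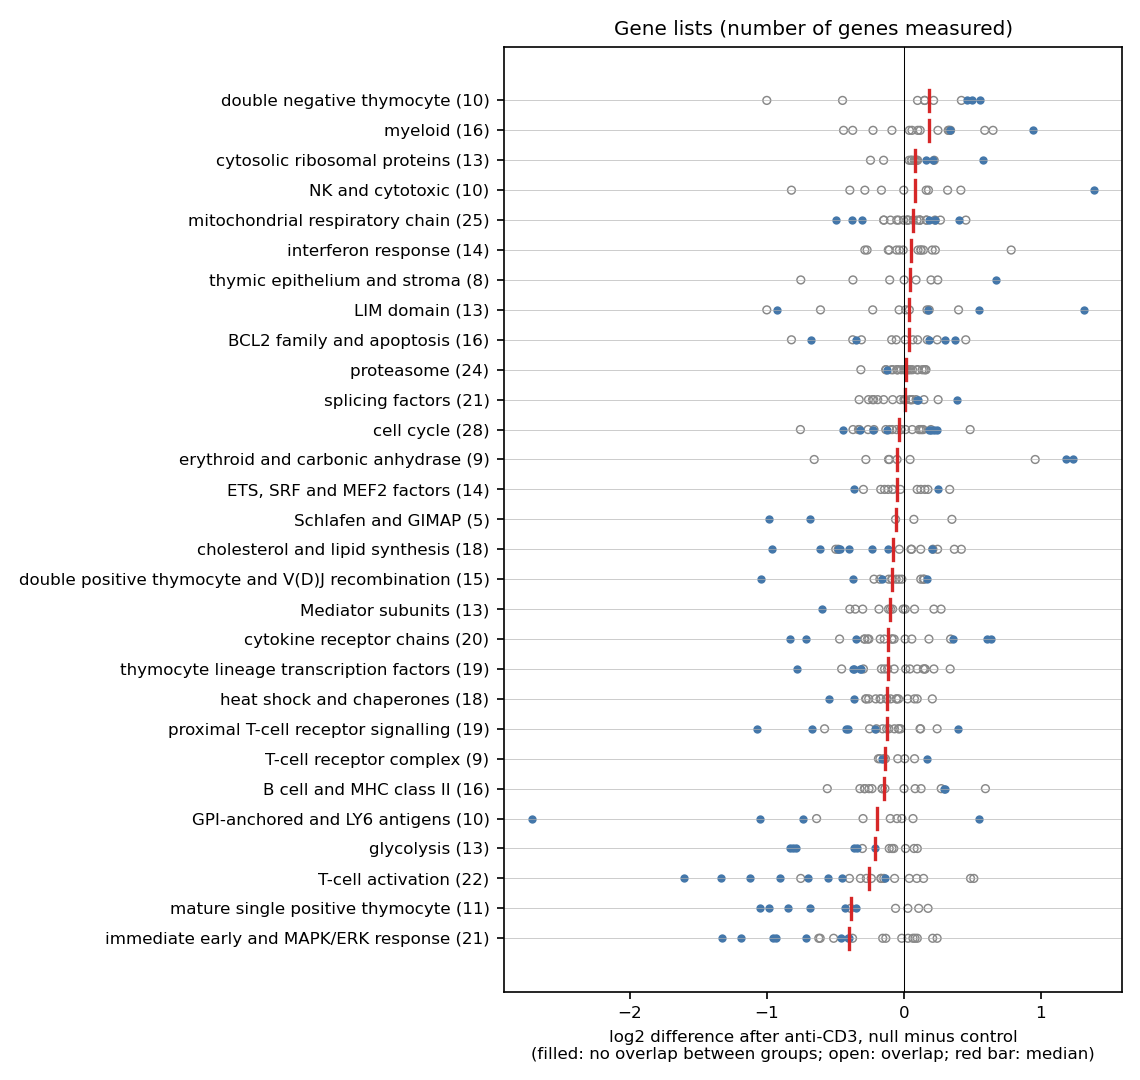
Log2 differences after αCD3 for each measured gene of 29 lists, sorted by the list's median (red bar). Filled points are genes whose groups did not overlap, and the number measured stands beside each name. The lists of immediate early genes (-0.40), mature single positive markers (-0.39) and activation genes (-0.25) have the lowest medians, and most others lie near 0.

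Markers of other cells that a thymus can hold were separated in part as summed signals. In both null mice the sums of the B cell, erythroid and NK lists lay above all controls, the latter pair as given above with Gzma and Hba-a1, while those of the myeloid and stromal lists overlapped. For the B cell and MHC class II genes the sum was 10428 to 12803 in the controls and 13237 and 13209 in the null mice. Ighm alone made up 7026.5 and 7093 of the null sums, so that the sum does not describe the list as a whole. The part of this sum in the other results was not tested. Of 16 B cell and MHC class II genes 2 were higher without overlap, Ighm (5073 to 6456 in the 4 controls and 7026.5 and 7093 in the null mice) and Cd79b (487 to 695 in the 4 controls and 728.5 and 697 in the null mice), and the list's median was -0.15, or -0.03 without Med23flox/flox replicate 1. Of 8 further Ighm probe sets tested, 1 was higher without overlap (0.63), 1 dim one was lower (-0.87) and 6 overlapped. Of 16 myeloid genes 2 were higher, C1qc (101 to 443 in the 4 controls and 526 and 503 in the null mice) and Cd14 (564 to 748 in the 4 controls and 784 and 851 in the null mice), with a median of 0.19 and summed signals of 4825 to 6377 in the controls and 6986 and 5908 in the null mice. S100a8 overlapped, with 580.3 to 1278 in the 4 controls and 1226 and 1059.5 in the null mice. Of 8 genes of thymic epithelium and stroma 1 was higher, Dcn (0.67), with signals near background. Over all probe sets 7.37% were higher without overlap, and the counts for these B cell, myeloid and stromal lists are too small to read as a difference from that share. The brightest of them, Col1a2, overlapped with 1515 to 1859 in the 4 controls and 2264.5 and 1728 in the null mice.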

How the data were processed

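RNA of total thymocytes was measured on Affymetrix U74Av2 mouse arrays, 1 per mouse and treatment. The authors deposited intensity values on a linear scale, computed per probe set as MAS5 signals (version not given in the sources used here), whose means after 2% was trimmed at each end were alike on all 12 arrays. No further scaling was applied. Groups came from the sample titles. The descriptions give 1 array identifier to both Lck-Cre replicate 2 after αCD3 and Med23flox/flox replicate 1 without it, so that for these arrays the titles alone were relied on. Of 12488 probe sets 66 controls were left out. Of the rest, 10833 have 1 symbol in the platform annotation, 10817 of them matched by Entrez ID to the RefSeq annotation of GRCm38.p6, 396 have several and 1193 none.

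Signals were tested as log2(signal + 50) with lmFit and eBayes of limma 3.58.1 in R 4.3.3 with Benjamini-Hochberg adjusted p at 0.05. The 6 αCD3 arrays, the 6 mock arrays and the within-mouse differences were each fitted with a mean for control and null mice, leaving 4 residual degrees of freedom. Nothing in the labels says that arrays differ in extraction or hybridization. The code was tested on simulated data. Python 3.11.15 with pandas 2.3.3 and matplotlib 3.10.9 made counts and figures.

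Named genes were Med23, and the 20 lower and 20 higher probe sets farthest from 0 in log2 difference that had 1 symbol, a mean of at least 200 in the higher group and no overlap, outside the induced set. Also named were up to 4 separated genes of each of 29 lists, the 2 brightest of each cell type list, and Cd3e, Cd4, Cd8a, Rag1, Dntt and Thy1. Genes named beyond this rule (Itgb7, Il7r, Sla and other list members) were chosen after their values were seen. A listed gene was represented by its brightest probe set. The members and lists were chosen with earlier results of these data known. Alternatives were pseudocounts of 20 and 100, a filter at 200 or none, 10% trimmed scaling, quantile normalization, either control genotype alone, a variance trend, a mouse or replicate block, and each mouse left out. The difference between control genotypes after αCD3 was also fitted, with 0 calls. Detection calls were not used here.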

Additional observations from a re-analysis of the deposited data

Results flagged for a closer look

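Of 44 measures looked at over the 4 control arrays after αCD3, 2 had a control array far from the others, where chance would mark about 1 in 20. The lower quartile of the signals had a gap of 0.918 of its range, set by Med23flox/flox replicate 1 at 85.2, and Ahnak a gap of 0.869, set by the same array at 133.5 against 247.4 to 269.8. The part of this array in the other results was not tested beyond leaving it out.

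For 7 of 118 named probe sets, the signal moved one way after αCD3 in all 4 control mice and the other way in both MED23 null mice. Over all 8679 probe sets, 147 were up in the controls and down in the null mice, and 147 the reverse. In limma the induction difference passed for none of the 7 (adjusted p of 0.865 for Snrp1c-ps2 and at least 0.975 for the others). St6gal1 on its dimmer probe set was up in the controls (0.35) and down in the null mice (-0.64), a difference of -0.996 (SE 0.37), and Bid likewise, a difference of -0.546 (SE 0.18). The reverse was found for the Snrp1c-ps2 probe set (2.04), Ang2 (1.30), Rpl41 (0.312), Hba-a1 (0.187) and Mef2d (0.126).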

How the results depend on the processing

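No probe set passed limma's test after αCD3 in 15 of 17 alternatives. A variance trend on intensity called 5 (Gzma and Lmo4 higher, Ly6d, Cd52 and Cd5 lower), as did a joint fit of both treatments with the mouse as a random block (Gzma and Lmo4 higher, Cd52, Cd5 and Ccr2 lower). Ccr2 was named after its values were seen, and the cause of these calls was not tested. In mock-treated cells, 1 probe set was called with a pseudocount of 20 and 2 with the trend. The replicate block called 0 in both treatments (after αCD3, 639 at an unadjusted p under 0.05 and a smallest limma adjusted p of 0.0692). Samples of the same number deviated together only weakly, with r = 0.077 to 0.128. With 2 arrays per genotype this cannot tell whether the numbers mark anything shared. Counts of lower and higher probe sets without overlap were 1643 and 1547 against Lck-Cre controls alone and 1835 and 1494 against Med23flox/flox controls alone, fewer arrays making separation easier. Leaving out 1 mouse gave 1025 to 1929 lower and 860 to 1898 higher ones, the most without null replicate 1 (1929 and 1686) or 2 (1765 and 1898), where the lone null array is assumed to vary like the others. With at least a 2-fold ratio as well, there were 50 and 45 with a filter at 200, 380 and 152 with none, 220 higher against Lck-Cre and 471 and 235 against Med23flox/flox controls, and without 1 mouse 156 to 492 lower and 117 to 345 higher. Of 107 named probe sets none changed direction, which their choice by separation fixes in part. Chosen after seeing the data, the lists were recounted without Med23flox/flox replicate 1, where 13.2% of probe sets were lower and 12.1% higher. The mature single positive list had 6 lower of 11 (median -0.37), and glycolysis had 7 of 13 (-0.29), lipid synthesis 9 of 18 (-0.17) and activation 12 of 22 (-0.40). Under other scalings 2 of 29 list medians changed sign, those of proteasome and splicing genes. The number of arrays limits the precision.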

Other observations

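Housekeeping gene groups gave small and mixed differences after αCD3, with a background of 8.78% of probe sets lower and 7.37% higher without overlap. Of 13 genes of cytosolic ribosomal proteins 3 were higher without overlap, Rpl22 (0.58; 0.08 on a second probe set, with overlap), Rpl41 (0.21) and Rps3 (0.16), and none lower, with a median of 0.08. Of 25 genes of the mitochondrial respiratory chain 3 were lower, among them Cycs, the gene of cytochrome c (-0.49), and Sdha, a subunit of succinate dehydrogenase (-0.38), and 3 higher, among them Atp5o (0.40), with a median of 0.07. Of 24 proteasome genes 1 was lower (Psmc5, -0.13), and of 21 splicing factor genes 3 were higher, with Snrpb (0.39) the farthest from 0. Without Med23flox/flox replicate 1, where 13.2% of all probe sets were lower and 12.1% higher, 4 proteasome genes and 2 splicing factor genes were lower.

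Of 18 heat shock and chaperone genes 2 were lower without overlap, where 8.78% of all probe sets were. They were the chaperonin subunit gene Cct8 (-0.54, with 839 to 1297 in the 4 controls and 733 and 658 in the null mice) and Hsph1 of the induced set (-0.37). Of 14 interferon response genes none was without overlap in either direction, and their median was 0.05. Without Med23flox/flox replicate 1, 4 heat shock genes were lower and 1 higher, and 1 interferon response gene was higher (13.2% lower and 12.1% higher over all probe sets). In the LIM domain list, beside Crip1 and Lmo4, Pdlim4 (0.55) and Lims1 (0.17) were higher without overlap out of 13 measured (8.78% lower and 7.37% higher over all probe sets). Such small counts are not read as results about these lists.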
